A study of Mus musculus with 2 samples.

Results

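Single-nucleus RNA was measured in tumour-associated macrophages of mouse mammary tumours, and 114 of 1838 nuclei (6.20%, exact 95% interval 5.14 to 7.40) carried many transcripts of immediate early and heat shock genes with few or none of Il1b and Nlrp3. These nuclei were chosen by counts of unique molecular identifiers (UMIs, each a distinct captured molecule), in 8 steps that start from all barcodes. A nucleus had to hold 1000 or more UMIs, 3 or more UMIs of 7 macrophage genes (Csf1r, Adgre1, Mertk, Ptprc, C1qa, C1qb and C1qc), and under 1000 CPM (a count scaled to a total of 1000000 UMIs) of 5 epithelial genes. It could hold at most 2 UMIs of the resident macrophage genes F13a1, Mrc1, Cd163, Lyve1 and Retnla, at most 1 of Gpnmb, Pdpn and Pde10a, and at most 2 of Mmp12. Of the 766 nuclei left, 237 had 6 or more UMIs of Hsph1, Fosb, Nr4a3, Atf3 and Jun together, and 114 of those had at most 2 UMIs of Il1b and Nlrp3 together. They are called the members below. The other 123, with 3 or more UMIs of Il1b and Nlrp3, are the Il1b-high counterpart. A further 481 nuclei passed the same first gates with under 6 UMIs of the 5 genes and at most 2 of Il1b and Nlrp3, and are called steady nuclei. All 3 groups were selected on measured values of these genes, so differences in them are given as a description and support nothing.

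The study compared control-PyMT mice, in which a viral oncogene, polyoma middle T, gives rise to mammary tumours, with MYC-PyMT mice, which also carry S100a8-cre and a MYC allele in Rosa26 behind a LoxP-stop-LoxP cassette, both backcrossed to B6. Both kinds of mice were lethally irradiated at an age of 7 weeks, received bone marrow cells of Fcgr1-cre-Rosa26LSL-H2B-mCherry/+ donors, and were moved to a low protein diet 2 weeks later for 6 weeks. Cre under S100a8, a neutrophil gene, drives MYC in the host, while the donor marrow marks nuclei of cells that have expressed Fcgr1, so blood cells left in the host would be unmarked. Cells sorted as positive for CD45, F4/80 and Vcam and negative for Siglec F, Ly6G, Ly6C and B220 gave nuclei that were sorted once more as mCherry positive and CD11b negative. There was 1 sample of each genotype, and no label ties either of the 2 wells in the barcode suffix to a genotype. The wells are therefore given as unmapped wells, the matrix is treated as 1 pooled sample, and no genotype comparison, p-value or count of tested genes is given. Intervals are exact 95% intervals and cover counting error only.

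Immediate early genes are switched on within minutes of a stimulus without new protein synthesis. Fosb and Jun encode subunits of the AP-1 transcription factor, Atf3 a stress-induced factor of the related ATF family, and Nr4a3 an orphan nuclear receptor. Hsph1 encodes a large chaperone that helps Hsp70 release its clients, and it is induced by heat shock factor 1 when unfolded proteins gather. Il1b encodes the cytokine interleukin 1 beta, and Nlrp3 the sensor of the inflammasome that leads to its cleavage. Both are primed in macrophages by NF-kB. Dissociation of tissue is known to induce AP-1 and heat shock genes in many cell types, and its part in these nuclei was not tested.

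In the GENCODE vM21 annotation of GRCm38, Hsph1 lies at chr5:149614287-149636376, Fosb at chr7:19302696-19310051, Nr4a3 at chr4:48045153-48086447, Atf3 at chr1:191170296-191218039 and Jun at chr4:95049034-95052222. Il1b lies at chr2:129364570-129371139 and Nlrp3 at chr11:59541568-59566956. Each is annotated as protein coding.

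The promoters below are shown because the members differ from steady nuclei in heat shock and AP-1 genes together, and from the counterpart in NF-kB genes. They are the 200 bases before the RefSeq start site (GRCm38.p6), 5′ to 3′ on the gene's strand, and capitals mark a heat shock element (GAANNTTC or TTCNNGAA, each its own reverse complement) or an NF-kB element. For Hsph1, which has 2 RefSeq start sites, the 30 bases around the element nearest to the upstream one are shown.
Hsph1, chr5:149636351-149636380, minus strand: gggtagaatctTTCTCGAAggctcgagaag
Hspa1a, chr17:34972157-34972356, minus strand: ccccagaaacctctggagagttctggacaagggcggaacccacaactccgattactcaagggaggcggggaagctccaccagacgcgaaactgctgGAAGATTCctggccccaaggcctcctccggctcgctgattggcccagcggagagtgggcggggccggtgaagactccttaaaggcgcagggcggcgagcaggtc
Jun, chr4:95052223-95052422, minus strand: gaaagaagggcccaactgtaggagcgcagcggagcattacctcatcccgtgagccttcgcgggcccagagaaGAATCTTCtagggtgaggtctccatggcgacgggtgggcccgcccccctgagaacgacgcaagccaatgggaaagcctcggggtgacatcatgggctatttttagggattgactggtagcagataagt
Fosb, chr7:19310046-19310245, minus strand: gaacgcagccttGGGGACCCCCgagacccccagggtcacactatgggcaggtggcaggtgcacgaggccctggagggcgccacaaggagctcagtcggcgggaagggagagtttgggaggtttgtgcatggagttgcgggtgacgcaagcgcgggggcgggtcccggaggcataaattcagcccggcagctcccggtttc
Cxcl2, chr5:90903699-90903898, plus strand: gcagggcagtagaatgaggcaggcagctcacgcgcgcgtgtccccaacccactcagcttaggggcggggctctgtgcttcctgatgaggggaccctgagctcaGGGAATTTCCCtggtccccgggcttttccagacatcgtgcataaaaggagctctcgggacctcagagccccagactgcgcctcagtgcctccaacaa
Il1b, chr2:129371140-129371339, minus strand: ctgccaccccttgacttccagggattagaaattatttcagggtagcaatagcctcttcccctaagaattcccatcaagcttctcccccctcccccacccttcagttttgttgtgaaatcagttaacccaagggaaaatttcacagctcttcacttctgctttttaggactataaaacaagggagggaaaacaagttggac

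The first 3 hold a heat shock element, Fosb and Cxcl2 an NF-kB element, and Il1b neither in this window. The element of Hsph1 begins 33 bases before the upstream RefSeq start and 54 before the other, that of Hspa1a 104 and that of Jun 128 bases before the start. In Hsph1, 2 further matches that overlap each other lie after both starts, the first of them 37 and 16 bases from them. Over windows of 300 bases (250 before and 50 after the start), a heat shock element was found in 17.0% of 27025 genes, and in 13 of 26 genes of the heat shock list that had a RefSeq window (50%). An NF-kB element was found in 5.14% of genes, in 9 of 18 genes of the NF-kB list (50%) and in 6 of 27 immediate early genes. A heat shock element was found in 3 of 27 immediate early genes, Jun among them (11.1%, under the share over all genes), and in 4 of 18 NF-kB genes. The AP-1 element TGACTCA, searched on both strands, was in 5.95% of genes and in 2 of 26 heat shock genes, those of Bag3 and Hspa5. The cyclic AMP response element TGACGTCA was in 2.03% of genes and in 2 of 27 immediate early genes, Btg2 and Maff. The windows of Nr4a3 and Atf3 held none of these elements, and neither did the 2 windows of the chaperone gene Dnajb1. In Bag3 the heat shock element lay after the start, at base 43. A match is a description of the letters and not evidence of binding.

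The wells stood apart. Of the members, 90 came from well 1 and 24 from well 2, and 9 barcode sequences occurred in both wells, none of them a member. Members of well 1 held Xist, expressed from the inactive X chromosome, at 1935 CPM and no UMI of the Y-linked Uty, whereas those of well 2 held Uty at 389 CPM and no UMI of Xist. The members are thus a mixture of nuclei of different sex chromosomes. Among the 237 nuclei past the gate on the 5 genes, members made up 43.9% in well 1 (95% interval 37.0 to 51.0) and 75% in well 2 (56.6 to 88.5). The share of the 766 nuclei past that gate was 31.9% in well 1 (28.3 to 35.6) and 26.02% in well 2 (18.5 to 34.7), intervals that overlap.

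Members held 399917 UMIs in all, with a median of 3146 per nucleus and a range from 1173 to 20563. The counterpart had a median of 3062 and the steady nuclei 2839, so the 3 groups were close in depth. Most members carried no Il1b or Nlrp3 at all: 69 had 0 UMIs of the pair, 28 had 1 and 17 had 2. The plot of the 766 nuclei by the 2 sums shows that neither gate fell in a gap.

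**Figure D1:**
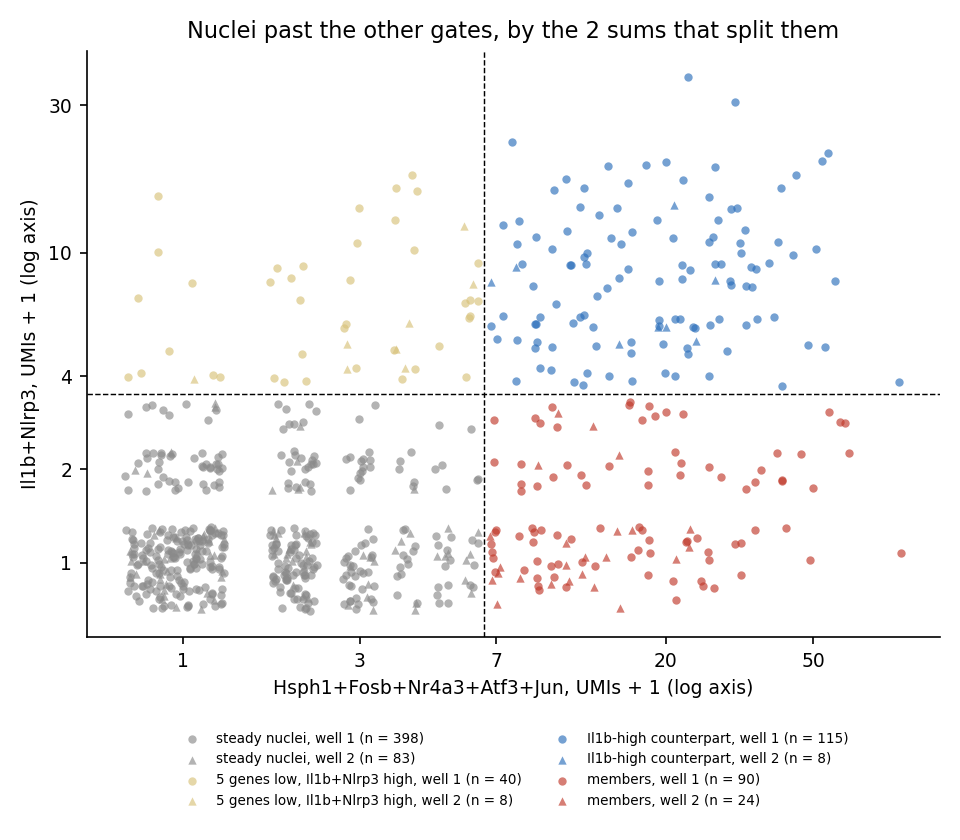
Each point is a nucleus that passed the first 6 gates, placed by its summed UMIs of the 5 immediate early and heat shock genes (x) and of Il1b and Nlrp3 (y), both plus 1 on log axes with random jitter, coloured by group and shaped by unmapped well. The 114 members lie at the lower right, with counts that run on into the 123 counterpart nuclei above and the 481 steady nuclei to the left without a gap at the dashed gates.

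Markers of macrophages were present. Csf1r, the receptor for colony-stimulating factor 1 that macrophages need to survive, was at 370 CPM in members, 445 in the counterpart and 675 in steady nuclei, and had a UMI in 60.5% of members against 4.91% of 163 nuclei high in epithelial genes, whose median depth was higher (4189 UMIs). Adgre1, which encodes F4/80, was at 348, 378 and 572 CPM in members, counterpart and steady nuclei, and C1qb, a chain of complement C1q, at 500, 509 and 615 CPM. These 3 genes are among the gates, so their presence was set in part by the choice of nuclei. A list of macrophage genes outside the gates summed to 9675 CPM in members, 10488 in the counterpart and 9680 in steady nuclei.

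A few members went against the label. In 5 of the 114 the 7 macrophage genes were under 1000 CPM, 4 of them in well 1 and 1 in well 2, against 0 of 123 in the counterpart and 7 of 481 in steady nuclei. The lowest was the deepest member, with 20563 UMIs and 195 CPM of macrophage genes. Some genes that are not typical of macrophages came mostly from single nuclei: of 59 UMIs of Dlc1 all came from 1 nucleus, and of 108 UMIs of Grip1, a scaffold protein, 89.8% did. Whether those nuclei were among the 5 low in macrophage genes is not shown. Below, results are given for all members. Some of them, mainly gene lists, are given again for well 1 with the 7 macrophage genes at 1000 CPM or more. That set leaves 86 members, 115 counterpart nuclei and 391 steady nuclei. It was added after seeing the data and is called the stricter set. A result without a value for the stricter set is not shown to hold there.

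Lists of markers of 11 other cell types summed to between 2.50 and 653 CPM in members. The highest was an epithelial list of 9 genes outside the gates, at 653 CPM in members, 601 in the counterpart and 553 in steady nuclei, carried mainly by the milk protein genes Csn3 and Wfdc18 (325 and 195 CPM in members). Their part in the results was not tested. The monocyte list stood at 495 CPM in members, 176 in the counterpart and 123 in steady nuclei, and it was concentrated in well 2 (1970 CPM among members there, 83.2 in well 1). It rested on Fn1, at 1626 CPM in members of well 2, and Ccr2, at 332 CPM, whereas Ly6c2 and Chil3 were at 0 in members of both wells. The fibroblast list was at 87.5 CPM in members, 0 in the counterpart and 5.90 in steady nuclei, and at 355 CPM in members of well 2, where its Col1a2 and Col3a1 UMIs came from 1 nucleus each. The B cell list was at 70.01 CPM in members, 7.45 in the counterpart and 11.1 in steady nuclei, with 309 CPM in members of well 2, where all 23 UMIs of Ebf1 came from 1 nucleus. The T cell and NK cell lists were at 47.5 and 32.5 CPM in members and at 0 in the counterpart, with 40.7 and 6.56 CPM in steady nuclei. The part of these lists in the results was not tested. The endothelial, mast cell, dendritic cell, neutrophil and eosinophil lists each summed to 128 CPM or less in the members. Of the neutrophil list, 7 of 10 genes were at 0 in the members, among them Ly6g, Retnlg and Mmp8. Cd3e, Cd3d, Cd3g and Trac of T cells were also at 0.

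The 5 genes of the gate did not come up together in each nucleus. Jun had a UMI in 98 of 114 members and Atf3 in 95, while Hsph1 had one in 67, Fosb in 65 and Nr4a3 in 24. All 5 were seen in 7 members, 4 in 27, 3 in 52, 2 in 22 and a single gene in 6. Jun alone gave the most UMIs of the 5 in 41 members, Atf3 in 32, Hsph1 in 19, Fosb in 7 and Nr4a3 in 3, and 12 were tied. The 19 nuclei led by Hsph1 were all in well 1. In summed level, Atf3 stood at 1545 CPM and Jun at 1540 CPM in members, with Hsph1 at 1168, Fosb at 675 and Nr4a3 at 243 CPM. In the counterpart the same genes were at 1724, 1628, 1516, 872 and 537 CPM in that order, and in steady nuclei at 82.0, 123, 32.8, 43.3 and 10.5 CPM. Nr4a3 had the lowest ratio of members to counterpart of the 5, at 0.45 (0.35 to 0.58), and Jun the highest, at 0.95 (0.85 to 1.06).

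Wells differed in this make-up. Hsph1 was at 1411 CPM in members of well 1 (1282 to 1549) and 298 CPM in well 2 (194 to 436), and it gave 24.6% of the UMIs of the 5 genes in well 1 against 9.52% in well 2. Nr4a3 gave 4.01% in well 1 and 9.16% in well 2. The 2 wells are 1 library each, so this difference has no replicate check.

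Il1b itself stood at 67.5 CPM in members (44.5 to 98.2), 1916 in the counterpart and 47.9 in steady nuclei, as the gate fixed. It had a UMI in 16.7% of members, against 12.7% of steady nuclei and 9.82% of the 163 epithelial-gene-high nuclei, which should lack it. After thinning each nucleus to 1000 UMIs these shares were 7.89% (3.67 to 14.46), 3.95% (2.39 to 6.10) and 4.29% (1.74 to 8.65). The summed level of Il1b in the 163 nuclei was 22.4 CPM (15.1 to 32.0), and 12 of those nuclei, which held macrophage genes at 1000 CPM or more, gave 9 of its 30 UMIs. These 12 were shallow, with at most 1986 UMIs, and held under 3 UMIs of the macrophage genes each. The thinned shares overlap between members and the 163 nuclei while the summed levels do not, and nothing is read from either, since the gate capped Il1b in members. In the 24 members of well 2 no Il1b UMI was found, which allows up to 42.3 CPM.

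Pooled over both wells, heat shock genes were high in members and close to their level in the Il1b-high counterpart. The list of 32 chaperone and co-chaperone genes without Hsph1 summed to 13555 CPM in members (13197 to 13921), 13721 in the counterpart (13361 to 14088) and 2929 in steady nuclei (2844 to 3016). The ratio of members to counterpart was 0.99 (0.95 to 1.03), and of members to steady nuclei 4.63 (4.45 to 4.82). The wells were mixed unequally, as well 2 gave 24 of 114 members but 8 of 123 counterpart nuclei. In well 2 the list was lower, with member medians of 6902 CPM there and 14989 CPM in well 1. In well 1 alone members stood above the counterpart, at a ratio of 1.08 (1.04 to 1.13). Of 28 measured genes (20 or more UMIs over both groups) 2 were 2-fold or more higher in members than in the counterpart and 0 were 2-fold lower, where 10.3% of all 5675 measured genes were 2-fold higher and 2.94% 2-fold lower. Of 30 measured genes 18 were 2-fold or more higher in members than in steady nuclei and 0 lower, where 7.36% of 8631 measured genes were higher and 11.5% lower. In the stricter set the ratios were 1.10 (1.06 to 1.15) and 5.67 (5.42 to 5.94), with 19 of 28 genes 2-fold higher than in steady nuclei, where 5.49% of 7811 genes were higher and 14.2% lower. In the same set 2 of 27 were 2-fold higher and 1 lower than in the counterpart, against 5.19% and 4.06% of 4852 genes. The median log2 ratio of the list to steady nuclei was 1.90, beside -0.20 over all measured genes. Over all measured genes the median ratio to the counterpart was 0.11 on the log2 scale, and each list is read against these shifts. Steady nuclei were gated low on a sum that includes Hsph1, so the heat shock difference from them is linked to the gate by known biology.

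Among single chaperones, Hsp90aa1, the stress-inducible Hsp90, was at 4106 CPM in members, 4100 in the counterpart and 449 in steady nuclei, a ratio of 9.14 to steady nuclei (8.36 to 10.01). It had a UMI in 99 of 114 members. Hspa1a and Hspa1b, the near-identical inducible Hsp70 genes whose reads may be split between the copies, were at 1315 and 1180 CPM in members, 1193 and 969 in the counterpart and 173 and 157 in steady nuclei. Dnajb1, an Hsp40 partner of Hsp70, was at 238, 311 and 22.3 CPM, a ratio of 10.7 to steady nuclei (7.13 to 16.3). Bag3, which links Hsp70 to autophagy, was at 463, 562 and 66.9 CPM. The co-chaperone Stip1 and the Hsp40 gene Dnaja1 were lower in members than in the counterpart, with ratios of 0.58 (0.42 to 0.80) and 0.69 (0.59 to 0.80). Hspa4, an Hsp110 relative of Hsph1, was higher, at 1.48 (1.11 to 1.997). Hsf1, which encodes the factor that drives these genes, was at 30.01 CPM in members, 32.3 in the counterpart and 38.7 in steady nuclei. For the chaperone of the endoplasmic reticulum Hsp90b1 the ratio to steady nuclei was 1.29 (0.99 to 1.67), and for the mitochondrial chaperones Hspa9 and Hspe1 it was 1.49 (1.07 to 2.05) and 5.32 (3.44 to 8.29).

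Since Hsph1 was part of the gate, members were also split by it, as a description only. In the 47 members with no Hsph1 UMI the heat shock list was at 7815 CPM, and in the 67 with one at 17397 CPM, a ratio of 2.23 (2.09 to 2.37). Median depths were 3124 and 3392 UMIs. The immediate early list was at 9025 CPM without and 8210 CPM with Hsph1, and the NF-kB list at 3817 and 3652 CPM. This split uses sparse counts of a gate gene of the same program, so nothing is supported by it. The ratio for heat shock genes was 2.13 (1.97 to 2.29) in the stricter set.

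The heat shock list spread widely over single members. It ran from 645 to 53884 CPM per nucleus, with a median of 12272 and quartiles of 5625 and 19564 CPM. The counterpart had a median of 12003 CPM and steady nuclei 2374 CPM, with single steady nuclei up to 55285 CPM, so the groups overlap. Members of well 1 had a median of 14989 CPM and those of well 2 6902 CPM. Across the 114 members the heat shock and immediate early lists had a Spearman correlation of 0.21, which is a description of nuclei that share libraries and depth. Within well 2 the list was 2.05 times as high in members as in steady nuclei (1.85 to 2.28), against 5.44 (5.21 to 5.69) in well 1.

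**Figure D2:**
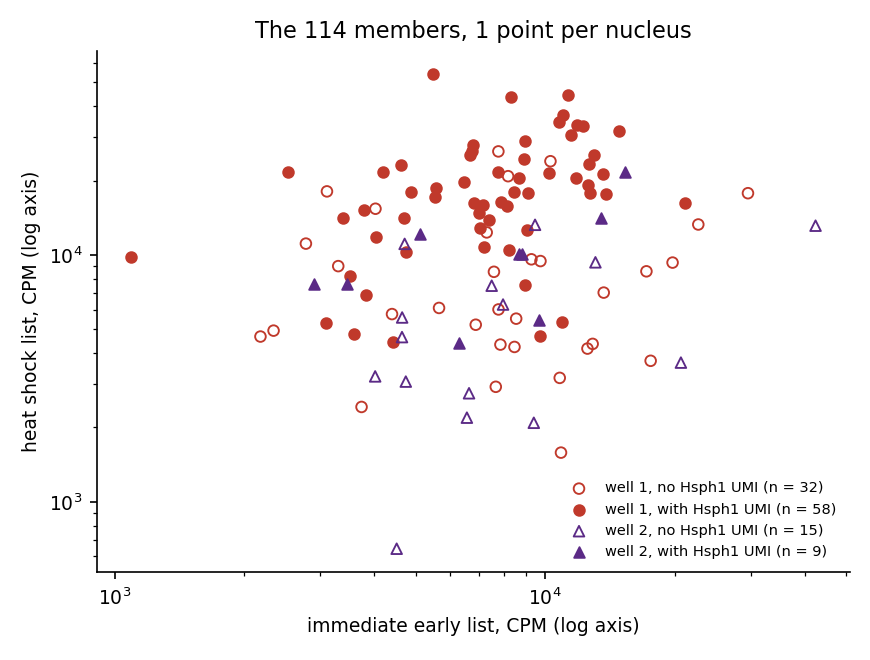
Each of the 114 members is placed by its level of the immediate early list (x) and the heat shock list (y), both in CPM on log axes without the 5 gate genes, with circles for well 1, triangles for well 2 and filled symbols where Hsph1 had a UMI. Filled symbols tend to lie higher on the y axis than open ones, with wide overlap. The triangles of well 2 lie mostly below 12272 CPM, the median of all members on the y axis.

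Over both wells, immediate early genes outside the gate were at a higher level than in steady nuclei and a lower one than in the counterpart. The list of 30 genes summed to 8537 CPM in members (8253 to 8828), 10553 in the counterpart (10238 to 10875) and 2361 in steady nuclei (2285 to 2439). The ratio to the counterpart was 0.81 (0.77 to 0.85), with 1 of 26 measured genes 2-fold lower (2.94% of all genes) and 0 higher (10.3%). The ratio to steady nuclei was 3.62 (3.45 to 3.79), with 21 of 27 measured genes 2-fold higher (7.36% of all genes). In the stricter set these ratios were 0.83 (0.79 to 0.87) and 4.23 (4.004 to 4.47), with 20 of 25 genes 2-fold higher than in steady nuclei (5.49% of all genes). Within well 2 the ratio to steady nuclei was 2.30 (2.08 to 2.54), and that to the 8 counterpart nuclei there was 1.08 (0.917 to 1.28), so that the direction against the counterpart did not hold in well 2. Medians of the list on the log2 scale were -0.33 to the counterpart and 1.80 to steady nuclei. Steady nuclei were gated low on genes of this same program, so the difference from them is linked to the gate by known biology.

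Within it, Fos, the classic partner of Jun in AP-1, was at 998 CPM in members, 1183 in the counterpart and 172 in steady nuclei. Junb followed at 863, 1131 and 201 CPM, and Jund, which is less inducible, was at 733, 616 and 210 CPM. Egr1, a zinc finger factor of growth signals, was at 438, 850 and 62.9 CPM, a ratio of 0.51 to the counterpart (0.43 to 0.62) and 6.95 to steady nuclei (5.39 to 9.01). The nuclear receptor Nr4a1 had a ratio of 0.57 to the counterpart (0.46 to 0.72), and Klf4 0.49 (0.33 to 0.73). Klf6 and Klf2 were near 1, at 0.98 (0.86 to 1.11) and 1.15 (0.77 to 1.71). Btg2, an antiproliferative gene, was 9.06 times as high as in steady nuclei (7.29 to 11.3). Zfp36, which encodes a factor that destabilises cytokine messenger RNA, was at 450, 768 and 117 CPM.

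In sum, genes that damp MAP kinase signals lay between the groups as well. Their list of 15 genes had ratios of 0.82 to the counterpart (0.74 to 0.91) and 1.74 to steady nuclei (1.58 to 1.91). Gene by gene the shift from the counterpart was mixed. Of 10 measured genes 2 were 2-fold lower (2.94% of all genes) and 1 higher (10.3%), with a median log2 ratio of -0.08 beside 0.11 over all genes. Against steady nuclei 6 of 10 were 2-fold higher (7.36%) and 0 lower (11.5%), with a median of 1.31 beside -0.20. The phosphatase gene Dusp1 was at 483 CPM in members, 778 in the counterpart and 109 in steady nuclei. Dusp2 was at 35.0, 104 and 9.18 CPM, from 14 UMIs in members.

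**Figure D3:**
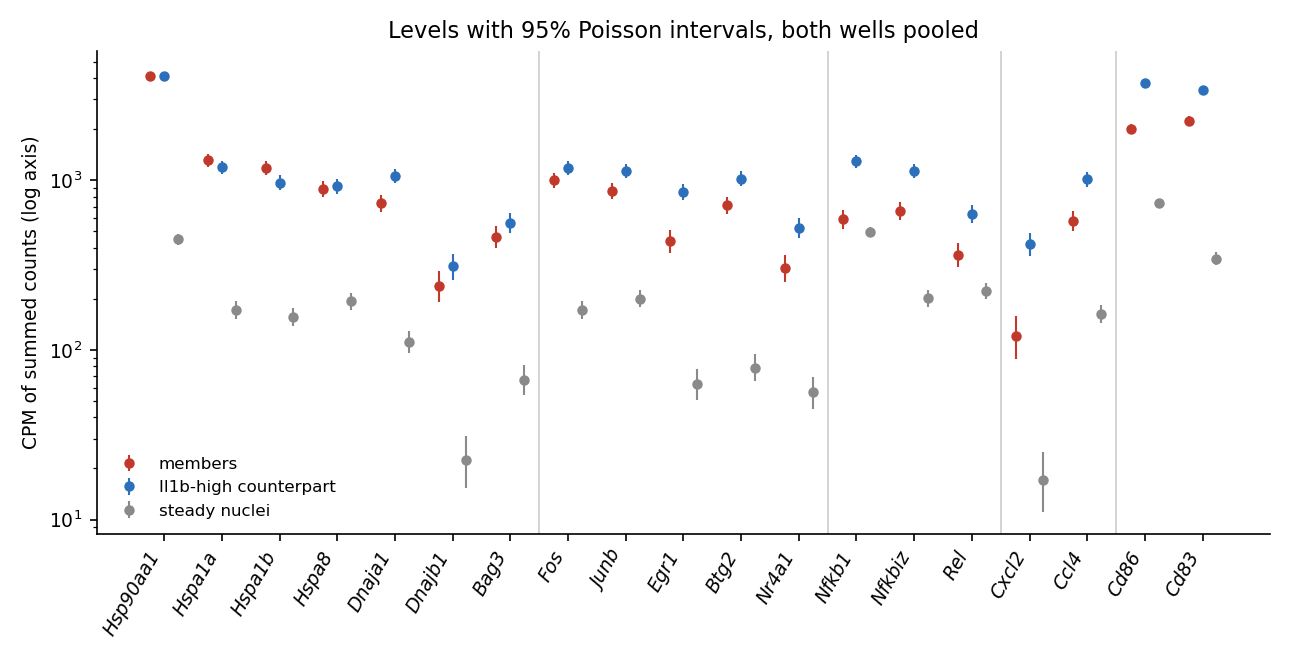
Points give the level of each gene in CPM (y, log axis) in members, the Il1b-high counterpart and steady nuclei, both wells pooled, with exact 95% Poisson intervals, and grey lines part heat shock, immediate early, NF-kB, chemokine and costimulation genes. Members lie on the counterpart for Hsp90aa1 (4106 and 4100 CPM) and below it for Nfkb1 (588 and 1297 CPM) and Cxcl2 (120 and 420 CPM). The groups differ in their mix of wells, which these pooled levels do not separate.

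Genes of the NF-kB pathway were at a lower level in members than in the counterpart and above steady nuclei. The 22 genes for subunits and feedback inhibitors summed to 3718 CPM in members (3532 to 3912), 6170 in the counterpart (5929 to 6417) and 2364 in steady nuclei (2287 to 2442). The ratio to the counterpart was 0.60 (0.57 to 0.64), with 3 of 20 measured genes 2-fold lower (2.94% of all genes) and 0 higher, and the median log2 ratio was -0.51 beside 0.11 over all genes. In the stricter set the ratio was 0.62 (0.58 to 0.67), with 5 of 19 genes 2-fold lower (4.06% of all genes), and within well 2 it was 0.762 (0.630 to 0.926). The ratio to steady nuclei was 1.57 (1.48 to 1.67), with 5 of 21 genes 2-fold higher (7.36% of all genes). The groups were divided by Il1b and Nlrp3, which NF-kB is known to induce, so that these genes are linked to the gate by known biology.

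Nfkb1, which encodes the p105 precursor and p50 subunit, was at 588 CPM in members (515 to 668), 1297 in the counterpart and 496 in steady nuclei. Its ratio to the counterpart was 0.45 (0.39 to 0.53), while that to steady nuclei was 1.19 (1.02 to 1.37). Rel, the c-Rel subunit, was at 365, 634 and 222 CPM, and Rela was at 60.01, 91.9 and 48.5 CPM. Among inhibitors, Nfkbia, the I-kappa-B alpha gene, was at 300, 460 and 100 CPM, and Nfkbie at 50.01, 152 and 23.6 CPM with a ratio of 0.33 to the counterpart (0.19 to 0.55). Nfkbiz, an atypical nuclear inhibitor, was at 658, 1131 and 202 CPM. Tnfaip3, the A20 deubiquitinase that ends NF-kB signals, was at 350, 581 and 67.5 CPM. Members thus stood above steady nuclei for the fast feedback genes Nfkbiz, Tnfaip3 and Nfkbia and close to them for Nfkb1.

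Over both wells, secreted products of macrophages lay in the same order. The list of 34 cytokine and chemokine genes, of which 8 were at 0 in members, had ratios of 0.64 to the counterpart (0.59 to 0.70) and 1.92 to steady nuclei (1.76 to 2.09), with 1 of 11 measured genes 2-fold lower (2.94% of all genes) and 6 of 14 2-fold higher (7.36%). Within well 2 the ratio to the 8 counterpart nuclei was 1.06 (0.768 to 1.497), on the other side of 1. Cxcl2, a neutrophil-attracting chemokine, was at 120 CPM in members, 420 in the counterpart and 17.0 in steady nuclei, with ratios of 0.29 (0.20 to 0.40) and 7.04 (4.28 to 11.8). Ccl4 was at 578, 1014 and 163 CPM and Ccl3 at 173, 338 and 37.4 CPM, both chemokines of activated macrophages. Tnf was at 185, 291 and 53.8 CPM. Il1a, the sister cytokine, was at 128, 229 and 40.7 CPM, and Il1r2, the decoy receptor for interleukin 1, at 65.01, 244 and 9.18 CPM. The interleukin 1 and inflammasome list without Il1b and Nlrp3 did not keep this order. Its ratio was 0.74 (0.66 to 0.83) to the counterpart and 0.82 (0.75 to 0.90) to steady nuclei. Of 10 measured genes 4 were 2-fold lower than in the counterpart (2.94% of all genes). Against steady nuclei its genes went both ways, with 4 of 13 2-fold higher (7.36% of all genes) and 2 lower (11.5%). The median log2 ratio to steady nuclei was -0.44 beside -0.20 over all genes.

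**Figure D4:**
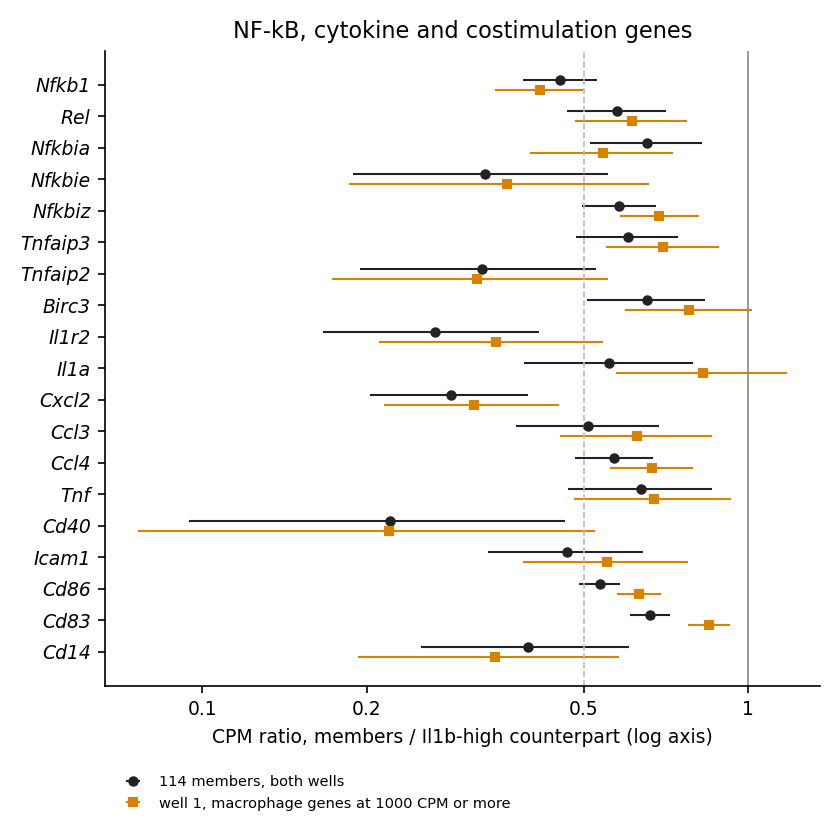
Ratios of CPM in members to the Il1b-high counterpart (x, log axis) are shown for 19 NF-kB, cytokine and costimulation genes, with exact 95% intervals, for all members and for the stricter set in well 1. All 19 ratios lie below 1 in both sets, from 0.22 for Cd40 to 0.66 for Cd83 over all members, and the intervals of Birc3 and Il1a reach 1 in the stricter set. The 19 genes were picked by hand, so their shared direction does not describe the whole lists.

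The list of class II and costimulation genes had 2 of 13 genes, Cd40 and Icam1, 2-fold lower than in the counterpart (2.94% of all genes) and a median log2 ratio of -0.02. Among class II genes, H2-Aa had a ratio of 1.18 (1.02 to 1.36), H2-Ab1 0.998 (0.86 to 1.16) and Cd74, the invariant chain, 0.89 (0.81 to 0.97). Among costimulation genes, Cd86, which binds CD28, was at 2018 CPM in members, 3769 in the counterpart and 732 in steady nuclei, a ratio of 0.54 to the counterpart (0.49 to 0.58). Cd83, which stabilises class II and Cd86 at the cell surface, was at 2243, 3387 and 346 CPM. In the stricter set the ratios to the counterpart were 0.63 (0.58 to 0.69) for Cd86, 0.85 (0.78 to 0.93) for Cd83 and 1.43 (1.23 to 1.67) for H2-Aa. Cd40, the receptor for CD40 ligand, was at 22.5, 102 and 36.1 CPM, from 9 UMIs in members. Icam1, an adhesion ligand, had a ratio of 0.47 (0.33 to 0.64). The whole list of 13 genes had ratios of 0.76 (0.73 to 0.80) and 1.37 (1.32 to 1.42), and in the stricter set 0.93 (0.89 to 0.97) and 1.69 (1.63 to 1.76). Within well 2 they were 0.624 (0.541 to 0.720) and 0.837 (0.765 to 0.914), so that the direction against steady nuclei turned there.

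The NRF2 list had ratios of 1.93 (1.83 to 2.05) to steady nuclei and 0.74 (0.70 to 0.79) to the counterpart, led by Nfe2l2, the gene of NRF2 itself, at 1863 CPM in members, 2890 in the counterpart and 506 in steady nuclei, and by the autophagy adaptor Sqstm1 at 598, 1021 and 129 CPM. Of its 13 measured genes 4 were 2-fold higher than in steady nuclei (7.36% of all genes), the median log2 ratio was 0.18, and the ratio was 2.19 (2.05 to 2.33) in well 1 and 1.15 (1.02 to 1.31) in well 2. The p53 and DNA damage list had ratios of 2.28 (2.06 to 2.52) and 0.69 (0.62 to 0.77), in which Btg2 also belongs to the immediate early list. Interferon-induced genes were lower than in steady nuclei, with a ratio of 0.58 (0.52 to 0.64) and 10 of 19 measured genes 2-fold lower (11.5% of all genes). Ifih1, a sensor of viral RNA, was at 77.5 CPM in members, 139 in the counterpart and 180 in steady nuclei. The interferon list had a ratio of 0.71 (0.64 to 0.79) to steady nuclei in the stricter set, with 8 of 19 genes 2-fold lower (14.2% of all genes) and 1, Rsad2, 2-fold higher. Within well 2 the ratio was 0.304 (0.219 to 0.413).

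**Figure D5:**
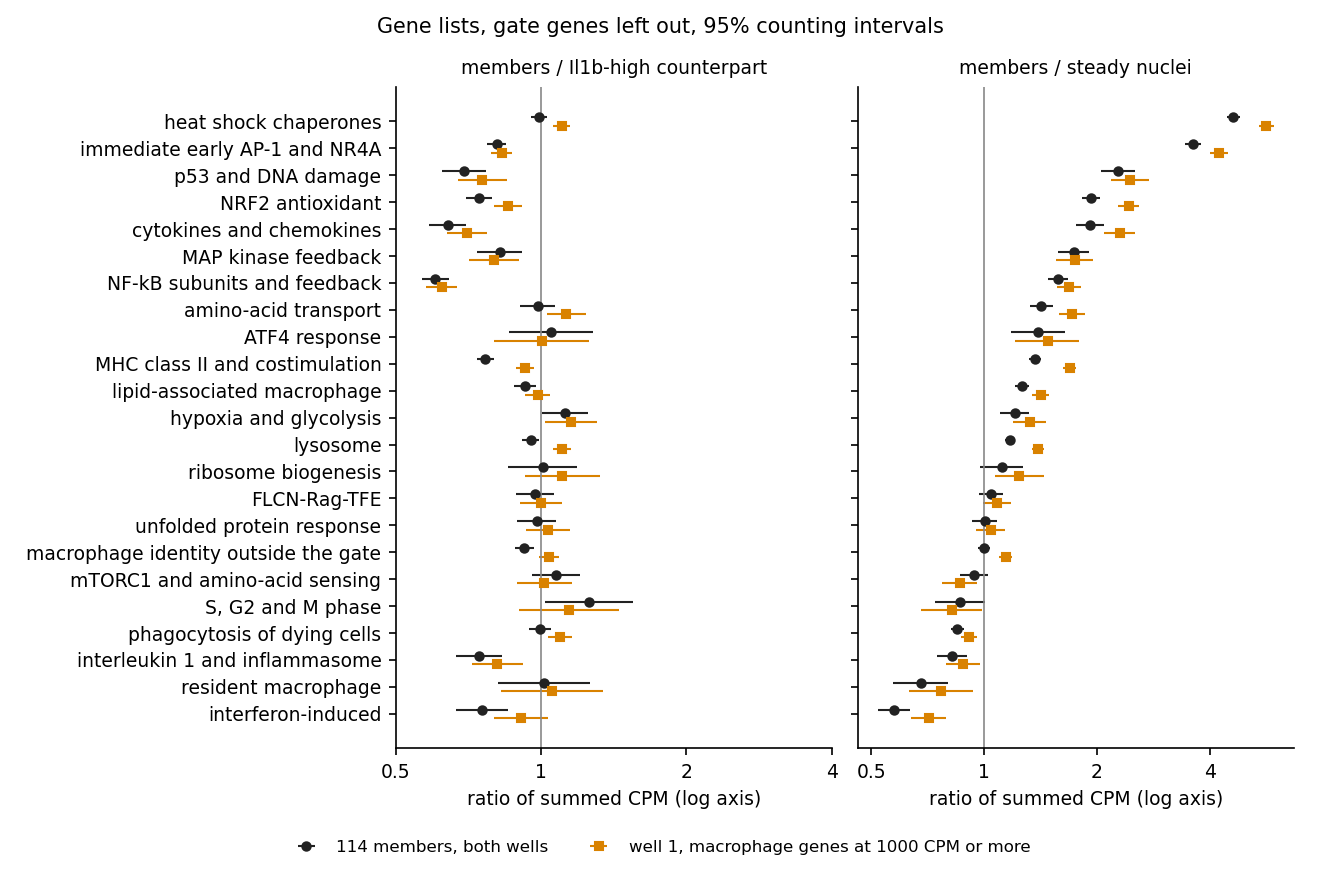
Ratios of summed CPM (x, log axis) for 23 gene lists without gate genes, members over the Il1b-high counterpart on the left and over steady nuclei on the right, with exact 95% counting intervals, for all 114 members and for the stricter set in well 1. The heat shock list lies at 0.99 on the left and 4.63 on the right, whereas the NF-kB list lies at 0.60 and 1.57 and the interferon list at 0.75 and 0.58.

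Lists for macrophage identity, the lysosome and nutrient sensing had ratios between 0.92 and 1.42 over both wells. Macrophage genes outside the gates had ratios of 0.92 (0.88 to 0.96) to the counterpart and 0.999 (0.96 to 1.04) to steady nuclei, or 1.04 (0.99 to 1.09) and 1.14 (1.10 to 1.19) in the stricter set. Cd14, the lipopolysaccharide co-receptor, was at 77.5 CPM in members, 196 in the counterpart and 43.3 in steady nuclei. It was 1 of 25 measured macrophage genes 2-fold lower than in the counterpart, near the share of 2.94% over all genes. Genes of the FLCN-Rag-TFE pathway had ratios of 0.97 (0.89 to 1.06) and 1.05 (0.97 to 1.12), and the unfolded protein response list 0.98 (0.89 to 1.07) and 1.01 (0.93 to 1.08). Amino-acid transporters had ratios of 0.98 (0.90 to 1.07) and 1.42 (1.33 to 1.53), and in the same order 1.13 (1.03 to 1.24) and 1.72 (1.59 to 1.86) in the stricter set, and within well 2 the ratio to steady nuclei was 0.929 (0.790 to 1.09). The lysosome list had ratios of 0.95 (0.91 to 0.99) and 1.17 (1.14 to 1.21), or 1.10 (1.06 to 1.15) and 1.39 (1.34 to 1.45) in the stricter set, while within well 2 the ratio to steady nuclei was 0.837 (0.776 to 0.903).

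Across all genes, the largest ratios of members to the counterpart in the pooled data mostly came from single nuclei. Among the 12 genes with the interval farthest above 1, Pde4d, Grip1, Auts2, Dlc1, Col5a2 and St6galnac3 each took 64.8% or more of their member UMIs from 1 nucleus. Without nuclei low in macrophage genes and without well 2, the 12 genes were led by St6galnac3 (39 UMIs in members, at least 18.1-fold higher against a floor of 3 counts over the counterpart, 87.2% from 1 nucleus), Emb (85.5% from 1 nucleus) and Ripor2. Better spread over nuclei were Plaa, seen in 15 members of that set, and Jarid2, a Polycomb cofactor seen in 36, at 416 CPM in members and 172 in the counterpart.

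Genes lower in members than in the counterpart differed in how many nuclei carried them. Arl5c, an ARF-like GTPase, was at 75.02 CPM in members, 557 in the counterpart and 49.2 in steady nuclei, a ratio of 0.13 (0.09 to 0.20), and had a UMI in 11 members and 33 counterpart nuclei. Myo1e, an unconventional myosin, was at 1318, 3178 and 689 CPM with a ratio of 0.41 (0.37 to 0.46), and it was seen in 90 of 114 members. Grasp was at 42.5, 253 and 8.52 CPM. Slc5a3, the inositol transporter, had a ratio of 0.27 (0.15 to 0.46). In the stricter set Arl5c, Grasp, Pdxk, Cxcl2, Slc5a3 and Myo1e were again among the 12 with the interval farthest below 1, joined by Nfkb1 and Chka. With gates on part of the counts and levels from the rest, Pdxk instead stood at 2.01 times the counterpart (0.88 to 5.15).

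Against steady nuclei the stricter set put chaperones and the immediate early gene Btg2 beside genes of other kinds. The first of the 12 genes with the interval farthest above 1 was St6galnac3, whose member UMIs came mostly from 1 nucleus, as given above. Nt5e, AW011738 and Gcnt2 were also among the 12. Of the 12 genes, Hsp90aa1 (14.3, 12.9 to 15.96), Dnajb1 (13.9, 8.91 to 22.4) and Hspa1a (8.75, 7.33 to 10.5) are chaperones. Ifrd1, a stress-responsive co-regulator, had a ratio of 12.2 (9.83 to 15.3) and stood at 1096 CPM in members, 1844 in the counterpart and 89.5 in steady nuclei. Dcstamp, a receptor-like protein of macrophage and osteoclast fusion, was at 394, 285 and 32.5 CPM and had no UMI in members of well 2. Mpp7, a polarity scaffold, was at 736, 1427 and 68.1 CPM, seen in 39 of 86 members. Cd83 had a ratio of 8.69 (7.70 to 9.81). Genes lower than in steady nuclei had smaller shifts and low counts: Heatr5a was at 191 and 515 CPM, Dido1 at 44.1 and 155 CPM, and Ifi209, an interferon-induced gene, at 7.36 and 54.7 CPM from 2 UMIs in members.

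Values just inside and just outside the gates are given as a description. The 17 members with 2 UMIs of Il1b and Nlrp3 had the heat shock list at 15105 CPM, the immediate early list at 9702 CPM and the NF-kB list at 6483 CPM, while the 13 counterpart nuclei with 3 UMIs had 16309, 7445 and 3629 CPM. At that limit the NF-kB and immediate early lists were thus higher on the member side, against the order of the whole groups. The 19 members with 6 or 7 UMIs of the 5 genes had the heat shock list at 7599 CPM and the 32 nuclei with 4 or 5 UMIs at 6527 CPM, with immediate early levels of 5815 and 4331 CPM.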

How the data were processed

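Nuclear RNA was captured with 10x Genomics 3′ chemistry, per the labels' protocols. The authors deposited 1 matrix of whole UMI counts (32285 genes by 1838 barcodes, 7381447 UMIs), made with Cell Ranger 5.0 on mm10, per the submitters' processing notes. Barcode suffixes name 2 wells, of which 0 could be mapped to a sample. Counts were summed over the nuclei of a group and divided by the group's total, scaled to 1000000 UMIs (CPM), with Python 3.11.15, numpy 2.4.6, scipy 1.17.1 and pandas 2.3.3. Levels have exact 95% Poisson intervals, ratios conditional binomial intervals and shares Clopper-Pearson intervals. Only the ratio intervals were tested on simulated data. These intervals cover counting error only, and nuclei are not replicates. A gene was measured at 20 or more UMIs over both groups, with the 28 gate genes left out. The genes named beyond the lists are the 12 per direction and comparison whose interval lies farthest from 1 at 50 CPM or more in the higher group. The members and gene lists were chosen with earlier results of these data known. Scrublet in scanpy 1.11.5 marked 0 of 1383 and 4 of 455 barcodes as doublets. None was removed, and how well the caller worked here was not tested. Promoters are RefSeq windows on GRCm38.p6, and positions come from GENCODE M21. Alternatives varied the gates, the depth, the wells and the filters.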

Additional observations from a re-analysis of the deposited data

Results flagged for a closer look

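In 2 gene lists the members of the unmapped wells stood on opposite sides of the steady nuclei of their own well. The list of class II and costimulation genes had a ratio of members to steady nuclei of 1.53 in well 1 and 0.837 in well 2. The lysosome list had a ratio of 1.27 in well 1 and 0.838 in well 2. Each well is 1 library, and the difference between the wells was not tested.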

How the results depend on the processing

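Under the alternatives run, the NF-kB list kept below its level in the counterpart (ratios of 0.522 to 0.679, and 0.762 in well 2) and the heat shock and immediate early lists above their levels in steady nuclei (2.05 to 5.67 and 2.30 to 4.23), whereas the heat shock list lay on either side of the counterpart (0.919 to 1.10). The causes of the shifts were not tested. With Il1b and Nlrp3 at 0 there were 69 members, 294 genes were 2-fold lower than in the counterpart, the immediate early list had ratios of 0.711 to the counterpart and 3.18 to steady nuclei, and the NF-kB list 0.522 and 1.36, or 0.545 and 1.42 with at most 1 UMI. With 4 or more UMIs of the 5 genes the ratios to the counterpart were 0.746 for immediate early and 0.919 for heat shock genes, and Ifit1 stood at 1.07 times steady nuclei. With 10 or more there were 74 members, the same ratios were 0.872 and 1.07, and Nrxn2 stood at 0.805 times steady nuclei, a bound where members were at 0. With gates on levels the heat shock list had ratios of 1.06 and 4.999 and the NF-kB list 0.540 and 1.40, and Nrxn2 stood at 0.447 times steady nuclei. Col5a2 at 0.298, Dlc1 at 0.223, Ebf1 at 0.583 and Pde3a at 0.638 times steady nuclei were bounds where members were at 0. Thinned to 1000 UMIs, 142 genes were 2-fold higher and 100 lower than in the counterpart, 307 were higher than in steady nuclei, and the heat shock ratio to steady nuclei was 4.05. With means over nuclei the cytokine list had ratios of 0.711 and 2.10, and the ratios to steady nuclei were 3.38 for immediate early and 4.19 for heat shock genes. With gates on part of the counts and levels from the rest, 379 genes were higher than in the counterpart, 418 higher and 609 lower than in steady nuclei, and ratios to the counterpart were 0.661 (immediate early), 0.928 (heat shock), 0.565 (NF-kB), 0.55 (cytokines), 2.01 (Pdxk) and 1.09 (Taf4b), with 3.22 (immediate early) and 0.865 (Gclc) to steady nuclei. Without the deepest 5% of nuclei the cytokine list had ratios of 0.714 and 2.26, and the NF-kB list 1.71 to steady nuclei. In well 1 alone the heat shock list had ratios of 1.08 and 5.44, the NF-kB list 0.555 to the counterpart and the immediate early list 4.03 to steady nuclei. In well 2 alone (24 members) ratios to steady nuclei were 2.30, 2.05 and 1.36 for immediate early, heat shock and cytokine genes, with 276 genes higher and 541 lower. Against its 8 counterpart nuclei the ratios were 1.08, 0.966, 1.06 and 0.762 for immediate early, heat shock, cytokine and NF-kB genes. With 6 or more macrophage UMIs 304 genes were higher than in the counterpart, and ratios to steady nuclei were 3.80, 5.13 and 2.11 for the same lists. With epithelial genes under 300 CPM 352 genes were higher than in the counterpart, ratios to it were 0.853, 0.933, 0.679 and 0.723 for immediate early, heat shock, NF-kB and cytokine genes, and ratios to steady nuclei 4.44 for heat shock and 1.69 for NF-kB genes. Genes higher and lower than in the counterpart numbered 122 and 72 at a minimum of 50 UMIs and 1202 and 351 at 10, against steady nuclei 318 and 467 at 50 and 1016 higher at 10, with 513 lower where the interval left out 1. With macrophage genes at 1000 CPM or more, an alternative added after seeing the data, 334 genes were higher than in the counterpart, with ratios of 0.648 and 1.68 for NF-kB and 0.702 to the counterpart for cytokine genes, and in well 1 alone 252 genes, with 1.10 and 5.67 for heat shock, 0.703 and 2.30 for cytokine, 4.23 for immediate early and 1.69 for NF-kB genes. There Deptor stood at 0.921 and 0.929 times the counterpart, and Nupr1 at 0.819 times steady nuclei in well 1. Of the summary values under alternatives 161 stayed within the main value's counting interval, or within 1.5 times the main count, and 76 did not. No paired analysis was possible because the wells carry no sample label and no test was made.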
